A study of Mus musculus with 16 samples.

Results

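The genes described here are 6 components of B cell receptor signalling, Cd79a, Cd79b, Blnk, Btk, Ms4a1 and Fcrla, read on every probe set that the platform annotation assigns to one of these symbols. The annotation gave 9 such probe sets of the 12422 tested on the array, with 1 each for Cd79a, Cd79b and Fcrla and 2 each for Blnk, Btk and Ms4a1. None of the 396 probe sets with several symbols named a member. No filter on low values was applied in the main fit, so all 9 entered every comparison there.

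As background, the B cell receptor is a membrane immunoglobulin held together with a heterodimer of the proteins encoded by Cd79a and Cd79b, whose cytoplasmic tails carry the tyrosine motifs that start the signal. Src family kinases and Syk phosphorylate these tails and the adaptor encoded by Blnk (SLP-65), which brings the TEC family kinase Btk to phospholipase C gamma 2 for calcium release. Ms4a1 encodes CD20, a surface protein of B cells that affects calcium entry, and Fcrla encodes an intracellular Fc receptor-like protein of B cells that binds immunoglobulin inside the cell. B1 cells, the innate-like B cells of the body cavities, are known to respond weakly to cross-linking of this receptor compared with the follicular B2 cells of the spleen.

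The study measured sorted mouse lymphocytes on 16 single-colour oligonucleotide arrays, with 1 array per sample, in 6 groups. B1 cells (n = 2) were wild-type C57BL/6 peritoneal cells sorted as IgM high, IgD intermediate and CD11b+, and B2 cells (n = 2) were wild-type C57BL/6 spleen cells sorted as IgM intermediate, IgD high and CD11b-. NKT cells (n = 3, CD3+CD4+NK1.1+) and CD4T cells (n = 3, CD3+CD4+NK1.1-) came from wild-type C57BL/6 spleen. CD8aaT cells (n = 3, TCRb+CD8a+CD8b-) and CD8abT cells (n = 3, TCRb+CD8a+CD8b+) came from RTOC, a culture given by this abbreviation only, and were selected with 10 mM and 100 nM of the agonist Smcy as the labels write the doses. The strain and genotype of the RTOC cells are not stated. About 100000 cells were sorted per peritoneal or splenic sample and about 50000 per RTOC sample. The ages of the mice, and whether animals were pooled, are not stated. The series sets innate against adaptive lymphocytes, so B1 minus B2 is the comparison of interest, and the T cell groups give the background level of the B cell genes.

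The deposited values are intensities, and array medians lay between 69.2 and 76.1 in the B cell groups, between 49.6 and 54.1 in the splenic T cell groups and between 30.4 and 31.9 in the RTOC groups. Whether the pairs were normalized apart is not stated, so tests were made only on differences within pairs and between such differences. Levels set across pairs are log2 intensities minus the array median, called centred log2 below and given without a test. The gate gene Ighd was lower in B1 than in B2 cells, with a log2 difference of -1.25 ± 0.18 (± is the SE of the fit here and in the differences that follow, limma adjusted p = 0.0017). Itgam, which encodes CD11b, had log2 intensities of 5.40 and 5.33 in B1 against 5.38 and 5.34 in B2 cells, and thus did not mark the gate. Of 14 measured macrophage markers, each on its brightest probe set, 1 was higher in B1 cells, Lyz2 (2.29 ± 0.43, limma adjusted p = 0.014), and 13 were not called. The other Lyz2 probe set stood at -0.22 and was not called. The summed intensity of the 14, in units of the array median, was 64.0 and 73.7 in B1 and 59.5 and 73.7 in B2 cells, most of it from Ctss. Without Ctss it was 14.8 and 13.3 in B1 and 11.1 and 11.3 in B2 cells. The 11 T cell markers summed to 41.9 and 39.1 in B1 and 27.2 and 20.4 in B2 cells, with none called and a median difference of -0.11. Cd2, with a difference of 1.25 ± 0.29 (limma adjusted p = 0.064), gave 30.9 and 28.3 of that sum in B1 and 15.5 and 9.34 in B2 cells, and without it the sum was 10.9 and 10.8 in B1 and 11.8 and 11.1 in B2 cells. Of 6 measured B1 cell markers 3 were higher in B1 cells, Plscr1 (3.27 ± 0.31), Cd9 (2.43 ± 0.26) and Ctla4 (1.71 ± 0.37). The other 3 were not called, Ahr (0.68 ± 0.57), Cd5 (0.36 ± 0.45) and Spn (-0.16 ± 0.21). The gate gene Ighm stood at 0.54 ± 0.35 on its brightest probe set, and was not called there or on its 15 others. The part of other cells in the results below was not tested.

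Promoter sequences are shown for the members with an entry in the RefSeq promoter table (GRCm38.p6), because most members stood high on the same arrays. Each runs 5′ to 3′ on the gene's strand from 250 bases before to 50 after the start used in that promoter table. Matches to the octamer ATTTGCAT or the ETS pattern AGGAAGT, searched on both strands and not overlapping each other, are in capitals. The Cd79a window is chr7:24897247-24897546 (plus strand), that of Blnk chr19:40994172-40994471 (minus strand), that of Btk chrX:134583091-134583390 (minus strand) and that of Fcrla chr1:170927534-170927833 (minus strand). The Cd79a and Blnk windows span the outer 5′ end of the gene, at 24897497 and 40994221. Those of Btk and Fcrla lie inside the gene and do not reach its outer 5′ end, at 134583628 and 170932216.
Cd79a: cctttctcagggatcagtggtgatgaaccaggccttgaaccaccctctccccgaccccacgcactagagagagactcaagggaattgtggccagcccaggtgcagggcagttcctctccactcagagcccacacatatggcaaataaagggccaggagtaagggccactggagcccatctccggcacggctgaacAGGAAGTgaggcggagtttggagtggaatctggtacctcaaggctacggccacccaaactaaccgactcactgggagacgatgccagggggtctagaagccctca
Blnk: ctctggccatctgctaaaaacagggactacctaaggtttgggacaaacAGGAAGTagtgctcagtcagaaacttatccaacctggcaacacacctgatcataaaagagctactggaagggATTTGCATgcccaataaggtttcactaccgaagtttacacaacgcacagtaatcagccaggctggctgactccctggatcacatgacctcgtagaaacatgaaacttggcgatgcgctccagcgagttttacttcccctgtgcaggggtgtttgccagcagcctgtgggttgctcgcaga
Btk: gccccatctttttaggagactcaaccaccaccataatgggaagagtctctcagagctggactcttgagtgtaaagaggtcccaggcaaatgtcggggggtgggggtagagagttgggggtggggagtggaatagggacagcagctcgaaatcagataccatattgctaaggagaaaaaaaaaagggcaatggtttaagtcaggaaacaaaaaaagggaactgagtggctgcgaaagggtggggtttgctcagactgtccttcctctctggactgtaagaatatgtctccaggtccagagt
Fcrla: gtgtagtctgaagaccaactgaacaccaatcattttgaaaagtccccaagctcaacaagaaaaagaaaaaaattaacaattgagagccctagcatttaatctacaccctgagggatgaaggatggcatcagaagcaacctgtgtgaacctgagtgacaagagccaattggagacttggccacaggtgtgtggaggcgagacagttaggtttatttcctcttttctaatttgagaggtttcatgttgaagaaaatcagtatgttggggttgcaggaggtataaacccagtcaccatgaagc
The octamer is the letter pattern bound by Oct factors, and AGGAAGT is a form of the sites of ETS factors such as PU.1. Only these exact letters were searched, so other forms of either site were not counted. The octamer was found in 1 of these 4 windows, that of Blnk, and the ETS pattern in 2, those of Cd79a and Blnk. Of 32851 promoter windows of the same length 1.74% held the octamer and 9.35% the ETS pattern. A match describes letters only, and the other windows lacking them say nothing of the factors.

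Each member had a probe set at percentile 85.3 or above of all probe sets in both B cell groups, the lowest being Cd79a in B1 cells. The second Btk probe set (161971_r_at) was dim, at percentile 1.21 in B1 and 10.4 in B2 cells. No member was shown to differ between B1 and B2 cells. Of the 9 probe sets 0 were called in B1 minus B2 (limma, adjusted p under 0.05 over all 12422 probe sets), where 142 or 1.14% of all probe sets were called. At an unadjusted p under 0.05 the members gave 1 of 9, against 4.78% of all probe sets. The B1 minus B2 differences lay between -0.49 and 0.30 on the log2 scale, 7 below 0 and 2 above. Leaving out a single B cell array turned the sign for Cd79a, Cd79b, Blnk (100771_at), Btk (92668_at) and Ms4a1 (99446_at), and called no member. Each B cell group had 2 arrays, which limits the precision, and the labels do not tie replicates to separate animals, so p-values measure only the spread between these samples. The fit shares 1 spread per probe set over all 6 groups, so T cell arrays also set the SE and the intervals below. For Ms4a1 (104173_at) the SD was 0.12 in B1 and 0.19 in B2, against 0.89 in NKT and 0.79 in CD4T cells. For Cd79a it was 0.84 in B1 and 0.82 in B2, against 0.047 in NKT and 0.21 in CD4T cells.

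Of the receptor chains, Cd79a (Ig-alpha, chromosome 7) had log2 intensities of 7.60 and 8.78 in B1 cells, against 7.92 and 9.08 in B2 cells. The groups overlapped, and each had 1 low and 1 high array more than 1 log2 unit apart. The difference was -0.31 ± 0.35 (95% interval -1.06 to 0.45, limma adjusted p = 1). Cd79b (Ig-beta, chromosome 11), the partner chain, had log2 intensities of 12.20 and 11.48 in B1 cells, against 12.34 and 11.87 in B2 cells. Here too the groups overlapped, with a difference of -0.27 ± 0.53 (95% interval -1.40 to 0.86, limma adjusted p = 1). Both intervals hold 0, and are wide beside the estimates, so equal levels were not shown.

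Of the adaptor Blnk (chromosome 19), the first probe set (100771_at) had log2 intensities of 8.92 and 10.29 in B1 cells, against 9.20 and 10.24 in B2 cells. Its second (100772_g_at) had 10.61 and 10.41 in B1 cells, against 10.94 and 10.64 in B2 cells. On the first the groups overlapped, and on the second both B1 arrays lay below both B2 arrays. The differences were -0.12 ± 0.37 (95% interval -0.91 to 0.68) and -0.28 ± 0.37 (95% interval -1.08 to 0.51), with a limma adjusted p = 1 for both.

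Of the kinase Btk (chromosome X), mutated in human X-linked agammaglobulinaemia and in the xid mouse, the brighter probe set (92668_at) had log2 intensities of 7.78 and 9.34 in B1 cells, against 7.96 and 9.20 in B2 cells. The B1 arrays were the lowest and the highest of the 4, and the difference was -0.019 ± 0.42 (95% interval -0.91 to 0.87, limma adjusted p = 1). The other probe set (161971_r_at) had log2 intensities of 3.94 and 3.82 in B1 cells, against 4.41 and 4.32 in B2 cells. Both B1 arrays lay below both B2 arrays there, at -0.49 ± 0.19 (95% interval -0.90 to -0.066), with an unadjusted p of 0.026 and a limma adjusted p = 0.76. That probe set had centred log2 levels between -2.30 and -1.51 on all 16 arrays, and its B cell arrays overlapped with its T cell arrays.

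Ms4a1 (chromosome 19) was bright on both probe sets. The first (104173_at) had log2 intensities of 12.20 and 12.03 in B1 cells, against 11.95 and 11.68 in B2 cells. The second (99446_at) had 12.41 and 11.97 in B1 cells, against 12.40 and 12.16 in B2 cells. On the first both B1 arrays lay above both B2 arrays, and on the second they overlapped, so the probe sets of this gene differed in sign, each within its interval. The differences were 0.30 ± 0.49 (95% interval -0.75 to 1.35) and -0.088 ± 0.44 (95% interval -1.02 to 0.85), with a limma adjusted p = 1 for both.

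Fcrla (chromosome 1) had log2 intensities of 10.10 and 10.02 in B1 cells, against 9.99 and 9.75 in B2 cells. Both B1 arrays lay above both B2 arrays by a small margin, and the difference was 0.19 ± 0.28 (95% interval -0.42 to 0.79, limma adjusted p = 1). In all, 4 of the 9 member probe sets had B1 and B2 arrays that did not overlap, 2 with B1 above and 2 with B1 below, and with 2 arrays a group such separation was common, in 12.2% of all probe sets with B1 above and in 20.1% with B1 below.

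**Figure D1:**
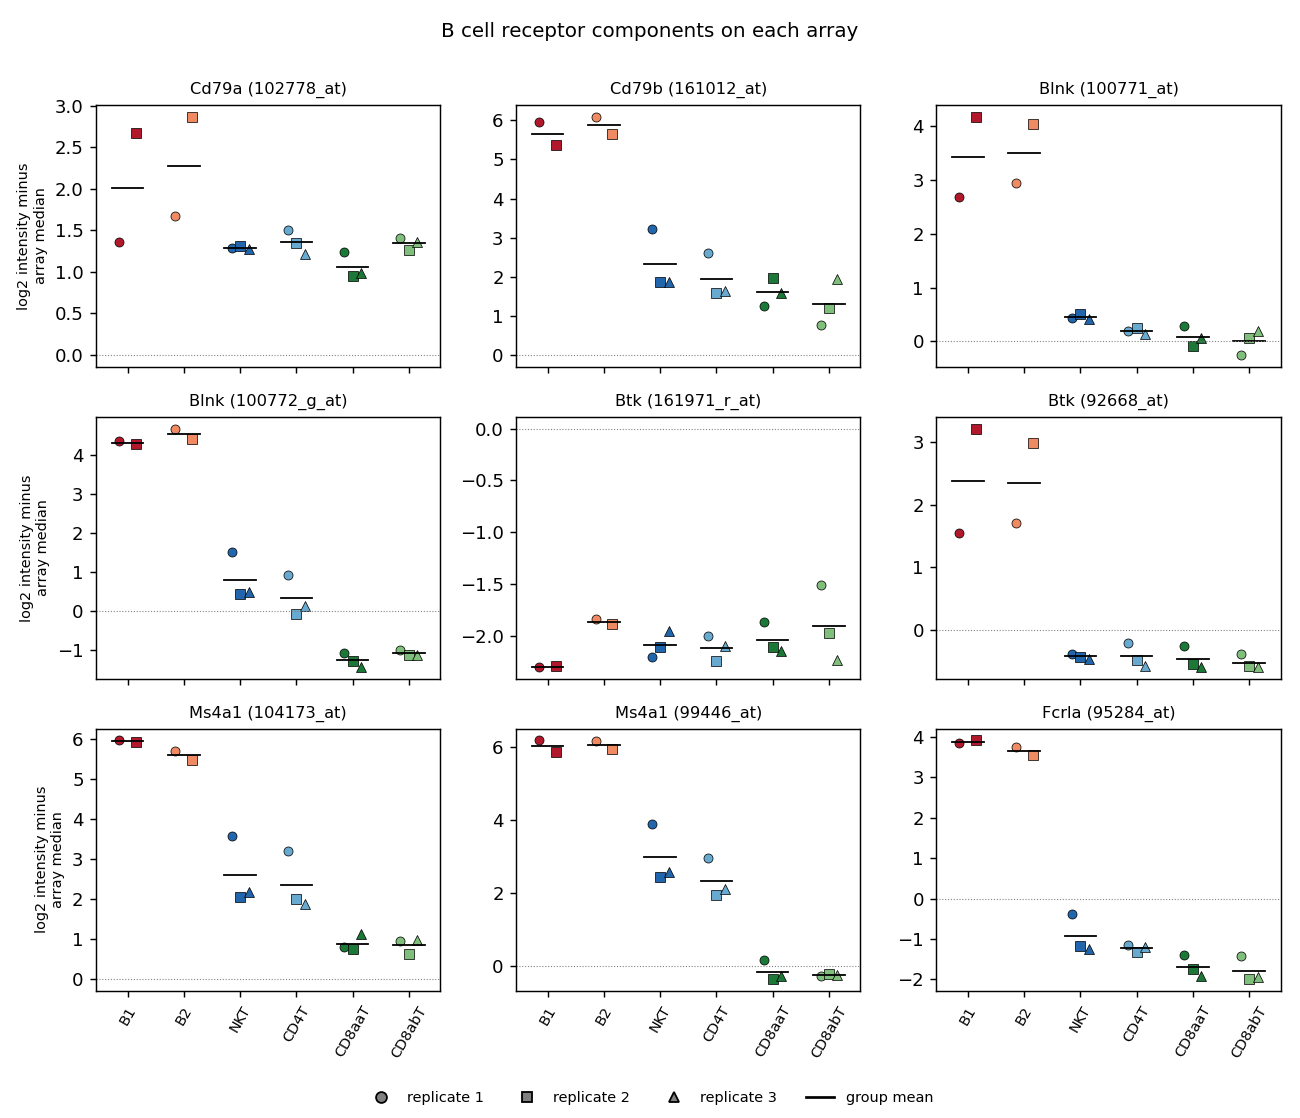
Centred log2 intensity (log2 intensity minus the array median) of the 9 member probe sets in the 6 groups, 1 panel per probe set with its own vertical scale. Symbols are single arrays by replicate number and the bar is the group mean. For 7 probe sets all 4 B cell arrays lie above the 12 T cell arrays. Cd79a (102778_at), Blnk (100771_at) and Btk (92668_at) split the B cell arrays by replicate number.

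The spread within the B cell groups was large for a subset of the members and followed the replicate number. In replicate 2 the Cd79a level was 1.18 above replicate 1 in B1 cells and 1.15 above it in B2 cells, on the log2 scale. For Btk (92668_at) the same gaps were 1.55 in B1 and 1.25 in B2 cells, and for Blnk (100771_at) 1.37 in B1 and 1.04 in B2 cells. These 3 of 9 probe sets stood 1 or more higher in replicate 2 of both groups, as did 0.725% of all probe sets. Cd79b ran the other way, by -0.72 in B1 and -0.48 in B2 cells. The second probe set of Blnk, both of Ms4a1, Fcrla and the dim one of Btk differed between the numbers by at most 0.44 in size in either group.

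The 2 Blnk probe sets thus disagreed on which B cell arrays were high. The Gapdh control read at its 3′ end over its 5′ end, a sign of target length, gave ratios of 5.36 and 8.48 in replicates 1 and 2 of B1 and 5.77 and 6.84 in replicates 1 and 2 of B2 cells. The mean of the 3 control probe sets of 18S ribosomal RNA was 484 and 87.6 in B1 and 637 and 198 in B2 cells in the same order. Their part in the gaps was not tested. Within one replicate number, B1 minus B2 was -0.32 and -0.29 for Cd79a, -0.17 and 0.13 for Btk (92668_at) and -0.28 and 0.047 for Blnk (100771_at), in replicates 1 and 2. The corresponding values were -0.15 and -0.39 for Cd79b, 0.25 and 0.35 for Ms4a1 (104173_at) and 0.11 and 0.27 for Fcrla.

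The T cell pairs gave the same measure for cells in which these genes are not known to serve the antigen receptor. Of the 9 member probe sets 0 were called in NKT minus CD4T, where 1.63% of all probe sets were called, and 0 in CD8aaT minus CD8abT, where 0.185% were. At an unadjusted p under 0.05 the members gave 0 in each, against 6.21% of all probe sets in NKT minus CD4T and 6.03% in CD8aaT minus CD8abT. The differences lay between -0.073 and 0.62 in NKT cells and between -0.30 and 0.28 in CD8aaT cells.

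Same-numbered arrays deviated together in these T cell groups, though the labels do not state that they are paired. With the number as a block 4.84% of all probe sets were called in NKT minus CD4T, 3.12% as higher in NKT cells. Of the 9 member probe sets 2 were called, both higher in NKT cells. Ms4a1 (99446_at) was higher in NKT cells by 0.62 ± 0.13 (1.54-fold, limma adjusted p = 0.021 with the block, 1 without), with log2 intensities of 9.64, 8.09 and 8.23 in NKT against 8.71, 7.62 and 7.75 in CD4T cells. Blnk (100772_g_at) was higher by 0.47 ± 0.095 (1.38-fold, limma adjusted p = 0.016 with the block, 1 without), with 7.25, 6.08 and 6.14 in NKT against 6.70, 5.60 and 5.75 in CD4T cells. Within replicates 1, 2 and 3 the difference was 0.92, 0.47 and 0.47 for Ms4a1 (99446_at) and 0.55, 0.47 and 0.39 for Blnk (100772_g_at), so each was higher in NKT cells in 3 of 3 numbers, while the other probe sets of both genes were not called. Part of the B cell marker list was also higher in NKT cells. Of 13 measured B cell markers, of which Cd22, Cd72, Cr2 and Fcer2a are also listed genes below, 4 were called higher in NKT cells without the block, Cd72 (1.90 ± 0.38) and the MHC class II genes H2-Aa (1.42 ± 0.28), H2-Eb1 and H2-Ab1. The other 9 were not called and lay between -0.28 (Pou2af1) and 0.59 (Cd37), and the median of the 13 was 0.16. Of 14 measured macrophage markers 2 were called higher in NKT cells as well, Lyz2 (2.08 ± 0.35) and Csf1r (0.60 ± 0.13), and 0 lower. Their sum over the array median was 31.5, 38.0 and 36.4 in NKT and 29.4, 55.2 and 56.6 in CD4T cells. Without Ctss, the leading gene, it was 16.1, 13.9 and 13.4 in NKT and 13.2, 10.8 and 10.3 in CD4T cells. Of 5 plasma cell markers 2 were called higher in NKT cells, Jchain (0.77 ± 0.13) and Prdm1 (0.94 ± 0.21), and 0 lower. The summed intensity of the B cell markers over the array median was 80.8, 59.0 and 59.4 in NKT and 47.6, 33.1 and 34.1 in CD4T cells. The part of such cells in the 2 calls was not tested. With the block 3.2% of all probe sets and 0 members were called in CD8aaT minus CD8abT.

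Whether the innate-like minus adaptive difference of a member was unequal between lineages was tested directly, as the B1 minus B2 difference minus that of a T cell pair. Of the 9 probe sets 0 were called against NKT minus CD4T, where 1.35% of all probe sets were called, and 0 against CD8aaT minus CD8abT, where 0.733% were. The unadjusted p was under 0.05 for 0 members in both, against 6.11% and 4.11% of all probe sets in the same order. The lowest of these contrasts was -0.75 ± 0.48 for Blnk (100772_g_at) against the NKT pair (limma adjusted p = 1, 95% interval -1.78 to 0.27).

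**Figure D2:**
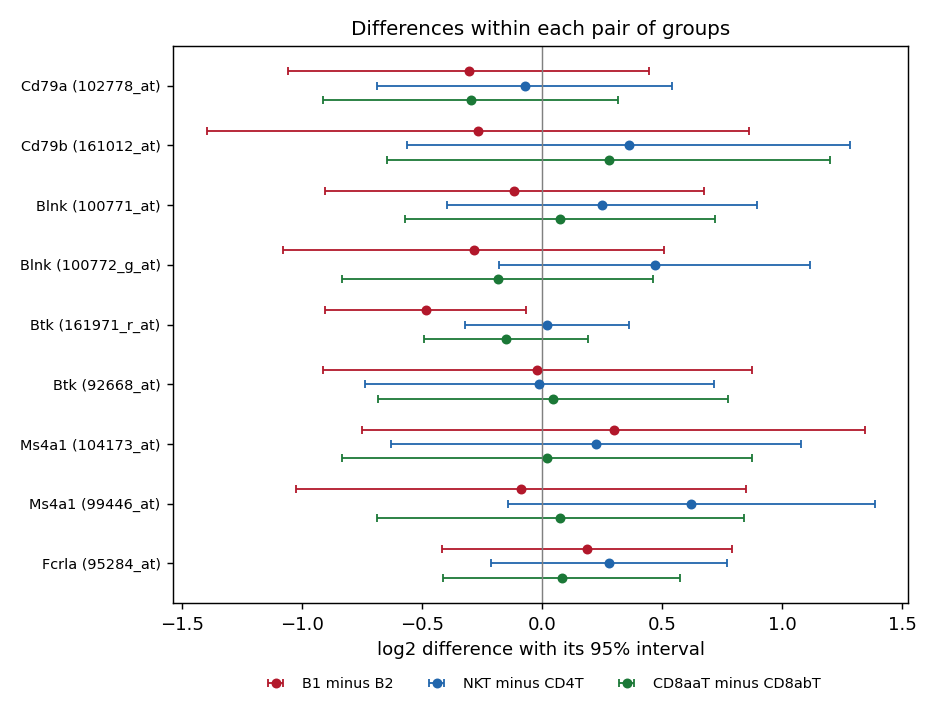
log2 differences of the 9 member probe sets within each pair of groups, B1 minus B2, NKT minus CD4T and CD8aaT minus CD8abT, from the limma fit over all 16 arrays. Points are estimates and bars their 95% intervals. The intervals hold 0 except that of Btk (161971_r_at) in B1 minus B2, which runs from -0.90 to -0.066.

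Set against the T cells, 5 of the 6 genes were far higher in the B cell groups, and Cd79a was the exception. For 7 of the 9 probe sets all 4 B cell arrays lay above all 12 T cell arrays on the centred scale, as they did for 4.06% of all probe sets. The median difference of the 9, B cell groups minus T cell groups, was 3.97 log2 units, and that of all probe sets was -0.042. In bulk RNA of sorted cells, fewer cells of a type and less RNA per cell cannot be told apart, and lineage and the normalization of each pair cannot be told apart either.

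Of the members Fcrla showed the widest separation, with centred levels of 3.85 and 3.91 in B1, 3.74 and 3.55 in B2, and from -1.99 to -0.39 over the 12 T cell arrays. Its difference of 5.16 (35.9-fold) ranked 2 of all 12422 probe sets, and the lowest B cell array lay 3.93 above the highest T cell array. Ms4a1 (99446_at) and Blnk (100772_g_at) ranked 5 and 7, with differences of 4.80 (27.9-fold) and 4.74 (26.8-fold). Ms4a1 (104173_at) was 4.09 higher and Cd79b 3.97 higher (15.7-fold), ranks 16 and 21. The lower-ranking Blnk (100771_at) was 3.28 higher and Btk (92668_at) 2.83 higher (7.12-fold), ranks 40 and 56.

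Cd79a separated the lineages less on this probe set, with centred levels of 1.36 and 2.67 in B1 cells, 1.67 and 2.87 in B2 cells and 0.95 to 1.51 over the T cell arrays. Of the 4 B cell arrays 3 lay above the highest T cell array, and replicate 1 of B1 cells lay within the T cell range. The difference was 0.88 (1.84-fold). It was 1.21 without replicate 1 of B1 cells, when the lineages did not overlap, and 0.55 without replicate 2 of B1 cells. The dim Btk probe set (161971_r_at) differed by -0.043, and 0 of the 4 B cell arrays stood above the highest T cell array.

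The order of the groups put B1 and B2 at the top for 8 of the 9 probe sets, B1 first for Btk (92668_at), Ms4a1 (104173_at) and Fcrla and B2 first for the other 5. B1 and B2 ranges overlapped on 5 of these 8. Next came NKT for Cd79b, both probe sets of Blnk, both of Ms4a1 and Fcrla, then CD4T, and the RTOC groups came last for each of these. NKT and CD4T overlapped for all of these except Blnk (100771_at), and CD8aaT overlapped with CD8abT for each. CD4T also overlapped with CD8aaT for Cd79b and Blnk (100771_at). For Btk (92668_at) neighbouring T cell groups overlapped, at means between -0.53 and -0.43. Cd79a was ordered CD4T, CD8abT, NKT and CD8aaT below the B cell groups, and CD8aaT did not overlap with NKT, its neighbour.

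Among T cells, Ms4a1, Blnk (100772_g_at) and Fcrla stood higher in the splenic groups than in the RTOC groups, with no overlap between their arrays. The other member probe sets overlapped. For Fcrla the margin was narrow, with a lowest splenic array of -1.32 and a highest RTOC array of -1.40. The share of all probe sets with such a split was not counted, so it is not shown to be particular to these genes. For Ms4a1 (99446_at) the centred levels were 3.90, 2.44 and 2.58 in NKT cells and 2.95, 1.95 and 2.12 in CD4T cells. They were 0.17, -0.35 and -0.26 in CD8aaT cells and -0.26, -0.21 and -0.24 in CD8abT cells. The Gapdh 3′ over 5′ ratio lay between 5.11 and 8.48 on the 6 splenic T cell arrays and between 7.37 and 30.4 on the 6 RTOC arrays, and its part in this split was not tested. Replicate 1 was the highest array in both splenic T cell groups for Cd79b, Blnk (100772_g_at), both probe sets of Ms4a1 and Fcrla. Replicate 1 was also the array least like the others in both groups. The share of all probe sets highest there in both was not counted. On the centred scale it stood above the mean of replicates 2 and 3 by 1.45 in NKT and 1.26 in CD4T cells for Ms4a1 (104173_at), and by 1.36 in NKT and 1.00 in CD4T cells for Cd79b. These 2 of 9 probe sets passed 1 log2 unit in both groups, as did 0.161% of all probe sets.

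Of the 13 B cell markers, a list without the members, 9 were also highest in replicate 1 of both splenic T cell groups, again without a share of all probe sets to set beside it. Cd74 stood 1.31 above the other replicates in NKT and 1.96 above them in CD4T cells, while Cd72 ran the other way, at -1.01 in NKT and -1.66 in CD4T cells. The sum of the list over the array median was 80.8 and 47.6 in replicate 1 of NKT and CD4T cells, above the 59.4 and 34.1 that were the highest of the other arrays of each group. It lay between 19.1 and 23.9 in CD8aaT and between 18.5 and 24.9 in CD8abT cells, against 269 and 270.4 in B1 and 378 and 368 in B2 cells. The 18S control was also highest in replicate 1, at 448 in NKT and 745 in CD4T cells, against 165 to 191 on the other 4 arrays. The part of B cells in the splenic T cell sorts was not tested. With replicate 1 of NKT and of CD4T left out, an alternative chosen after seeing this, the median difference of the members between B and T cells was 4.17 and 0 members were called in NKT minus CD4T.

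The rest of the pathway was read from lists by role, each gene on its brightest probe set. Of 44 measured pathway genes of 62 listed, 0 were called higher and 3 lower in B1 cells, Cd72, Cr2 and Cd22, with a median difference of -0.12. Over all 8251 genes on their brightest probe sets 80 were called higher and 32 lower, with a median of -0.053. Of all probe sets 0.789% were called higher and 0.354% lower. The 3 called genes are surface molecules that modulate the receptor's signal. Of the 5 kinases, 8 adaptors, 13 enzymes and 5 downstream factors 0 were called.

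Cd72, an inhibitory co-receptor that recruits the phosphatase SHP-1, had log2 intensities of 5.02 and 5.53 in B1 cells, against 9.10 and 9.55 in B2 cells. The groups stood far apart, with a difference of -4.05 ± 0.46 (16.5-fold, limma adjusted p = 0.00024), and -4.30 to -3.24 over the alternatives. Cr2, which encodes the complement receptor CD21, had 3.82 and 3.88 in B1 cells, against 5.85 and 5.97 in B2 cells. It was lower in B1 cells, with a difference of -2.06 ± 0.19 (4.17-fold, limma adjusted p = 2.99e-05). Over the alternatives the Cr2 difference ran from -2.12 to -0.99, and a filter on dim probe sets removed it. Cd22, a sialic acid-binding inhibitory receptor, had 9.09 and 9.33 in B1 cells, against 9.88 and 10.29 in B2 cells, with a difference of -0.87 ± 0.17 (1.83-fold, limma adjusted p = 0.016). The Cd22 call did not hold in 5 of 26 alternatives, without replicate 1 of B1, replicate 2 of B1 or replicate 2 of B2 cells, with B1 and B2 fitted alone and with a minimum difference of 1, at values between -1.08 and -0.67 over all alternatives.

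By role, the remaining genes were not called in the fit without a replicate block. Of 5 receptor-proximal kinases Fyn was -0.93 ± 0.36 (limma adjusted p = 0.67), Syk 0.55 ± 0.25 and Blk, a Src family kinase of B cells, 0.19 ± 1.02. Of 7 inhibitory receptors and phosphatases Ptpn6, which encodes SHP-1, was -1.12 ± 0.30 (limma adjusted p = 0.13). Among 13 enzymes Plcg2, the phospholipase downstream of Blnk and Btk, was -0.35 ± 0.33, in a range of -0.35 to 0.49. The 8 adaptors lay between -0.26 and 0.35 and the 5 downstream factors between -0.29 and 0.40. Of 3 chains of early B cells Vpreb3 was -0.64 ± 0.24 (limma adjusted p = 0.64).

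Against T cells, 10 of the 44 pathway genes had all B cell arrays above all T cell arrays, as did 305 of all 8251 genes. Another 4 had them all below, Cd5 (-3.08), Fyn (-2.27), Rac2 (-1.05) and Plcg1 (-0.40), and the median of the 44 was 0.11. The 10 genes above included Blk (4.51 higher on the centred scale), Cd22 (3.29), Fcgr2b (3.27), Plcg2 (2.75) and Syk (2.62). The last 2 act with the members on the path from the receptor to calcium release. Of 10 measured counterparts in T cell receptor signalling, 9 had all B cell arrays below all T cell arrays, as did 548 of all 8251 genes and 5.84% of all probe sets. Among them were Cd3d (-5.63) and Cd3g (-5.30), the counterparts of the Cd79 chains, Lcp2 (-4.87), the SLP-76 counterpart of Blnk, and Zap70 (-4.18), that of Syk. In B1 minus B2 0 of these 10 were called, with a median of -0.14. Txk (-0.50 ± 0.37) and Zap70 (-0.36 ± 0.25) lay lowest.

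**Figure D3:**
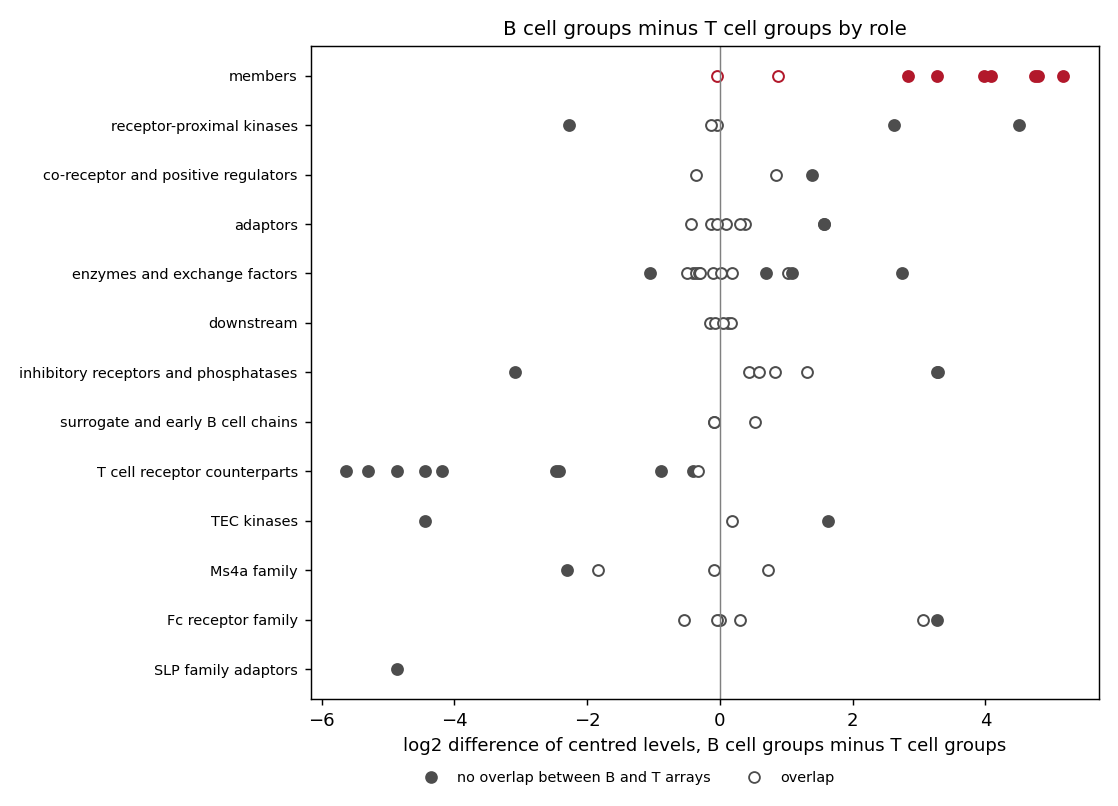
Differences between the B cell groups and the T cell groups in centred log2 intensity, for the member probe sets and for listed genes by role. Filled points have no overlap between the 4 B cell and the 12 T cell arrays. The members reach 5.16 and the T cell receptor counterparts -5.63.

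The relatives of the members in their gene families gave 14 measured genes of 28 listed, with 0 called higher and 2 lower in B1 cells. Fcer2a, which encodes the low-affinity IgE receptor CD23, had log2 intensities of 7.95 and 7.42 in B1 cells, against 10.61 and 10.50 in B2 cells. It was lower in B1 cells, with a difference of -2.88 ± 0.18 (7.34-fold, limma adjusted p = 7.3e-07). Ms4a4c, of the family of Ms4a1, had 7.13 and 6.47 in B1 cells, against 9.30 and 8.68 in B2 cells. Its difference was -2.19 ± 0.35 (4.57-fold, limma adjusted p = 0.0042), and the values ran from -2.52 to -1.86 over all alternatives. The Ms4a4c call did not hold in 4 of 26, without replicate 2 of B1 or replicate 1 of B2 cells, without replicate 1 of any group and with B1 and B2 fitted alone. Of the TEC kinases Tec was -0.57 ± 0.24 and Bmx 0.33 ± 0.23, neither called. The difference between B cells and T cells on the centred scale was 1.63 for Tec and -4.44 for Txk.

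**Figure D4:**
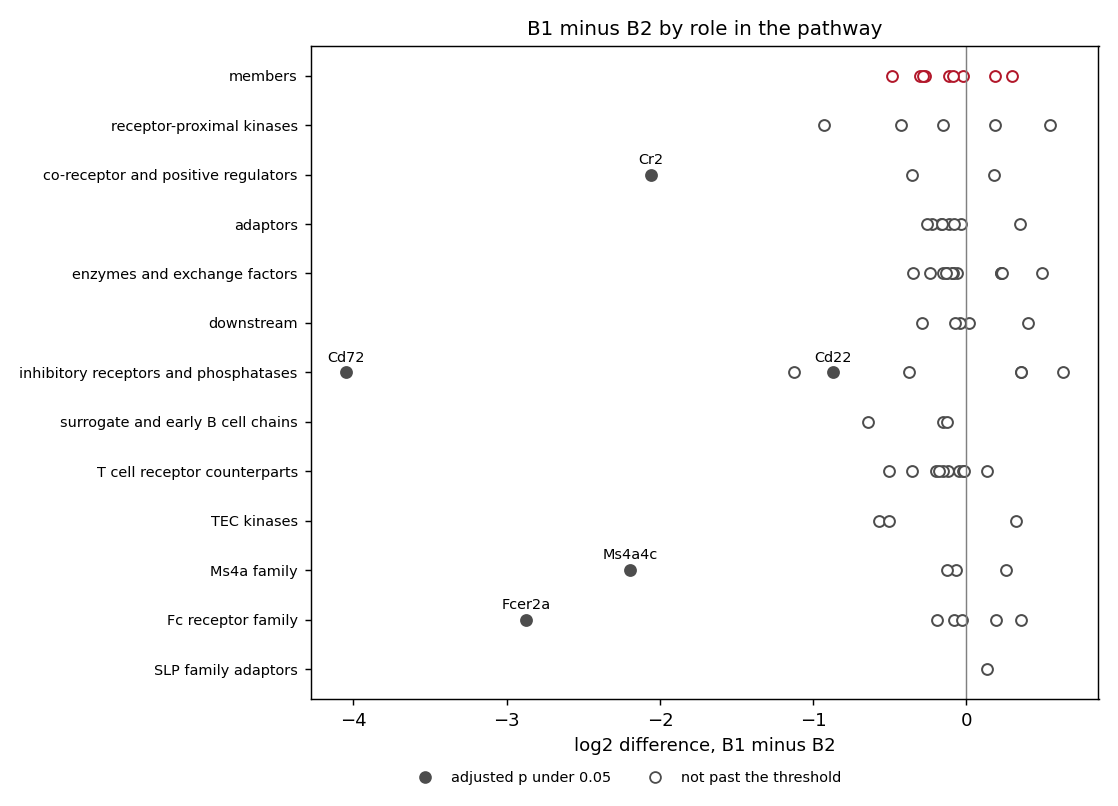
log2 differences between B1 and B2 cells for the member probe sets and for listed genes by role, each on its brightest probe set. Filled points passed a limma adjusted p of 0.05. The members lie between -0.49 and 0.30, and Cd72, Fcer2a, Ms4a4c, Cr2 and Cd22 were lower in B1 cells.

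The members' profiles over the 16 arrays were alike for most pairs of probe sets. Pearson correlations of centred levels over the 36 pairs ran from -0.22 to 0.99 with a median of 0.89. The low end came from the dim Btk probe set. These points share array, normalization and the gap between lineages, so the values are a description only. The pair with the highest value was Blnk (100772_g_at) with Ms4a1 (104173_at), at 0.99.

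The genes most like each member over the 16 arrays, on its brightest probe set, were other B cell genes in part. For Btk they were Prr5 (r = 0.99), Spi1 (0.98), which encodes PU.1, and a kappa variable segment (0.98). For Fcrla they were Ly6d (0.99), the transcription factor gene Spib (0.99) and Fcgr2b (0.99). For Ms4a1 they were the invariant chain gene Cd74 (0.98), Ly86 (0.98) and a kappa variable segment (0.98), and for Cd79b they were Txndc16 (0.99), Otud7b (0.99) and Ly6d (0.98). For Blnk they were a kappa variable segment (0.98), Prr5 (0.98) and Slc30a5 (0.98). Cd79a had lower values, with a kappa variable segment (0.87), Prr5 (0.87) and Bpifa2 (0.86). The immunoglobulin variable segments share sequence and are left unnamed.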

How the data were processed

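Values of 16 arrays were deposited by the authors as 1 intensity per probe set and array on a linear scale, made with RMA per the submitters' processing notes. Its version, its settings and the set of arrays in each run are not stated there. Differences of dim probe sets are understated by such summaries. Of 12488 probe sets 66 controls were left out. Of the 12422 tested, 10833 had 1 gene symbol, 396 several and 1193 none listed, and 10817 matched a RefSeq gene (GRCm38.p6) by Entrez number.

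Groups and replicate numbers came from sample titles. Log2 values were fitted with limma 3.58.1 in R 4.3.3 as 6 group means over all 16 arrays, two-sided, and Benjamini-Hochberg adjusted over 12422 probe sets. The labels name no test, and p-values are limma's throughout. On simulated data of 12422 probe sets for B1 minus B2, 60 of 100 changes of 1 log2 unit and 93 of 100 changes of 2 were recovered, with 10 false calls. The simulated noise was independent between arrays, whereas same-numbered real arrays deviated together. The changed probe sets were drawn at random, so these rates do not describe the members. Genes were named by a rule: the members and, from the pathway, counterpart and family lists, every gene called in B1 minus B2 and up to 6 of the largest differences. Marker lists are given by counts and sums. Single markers, Pirb, Syk, Blk, Plcg2, Zap70 and the genes named for B minus T were added after their values were seen. The members and lists were chosen with earlier results of these data known.

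Same-numbered arrays were checked for pairing. Deviations of NKT and CD4T arrays from their group means correlated at 0.76, 0.65 and 0.67 for numbers 1, 2 and 3. For CD8aaT with CD8abT the values were 0.64, 0.60 and 0.66, all above the minimum of 0.1. For B1 and B2 the value was 0.69, but 2 numbers are too few for the rule. Replicates 2 and 3 of NKT and of CD4T were closely alike, the SD of their log2 difference being 0.126 in NKT and 0.162 in CD4T, against 0.383 to 0.634 for pairs with replicate 1 there. At most 1 probe set had equal values on 2 arrays of a group.

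Alternatives covered scaling, offset, filter, variance model, block and arrays left out. The number of arrays limits the precision.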

Additional observations from a re-analysis of the deposited data

How the results depend on the processing

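Over 26 alternatives to the limma fit, 0 of 232 member values were called in B1 minus B2 (lowest adjusted p = 0.134), 2 in NKT minus CD4T (0.0158) and 0 in CD8aaT minus CD8abT (0.129). The filter on dim probe sets removed Btk (161971_r_at) and Fcrla, which have no value in that alternative. The probe sets called in B1 minus B2 numbered 50 with only those groups, 353 with the replicate block, 214 with an offset of 32, 71 with a filter on dim probe sets, 227 without replicate 1 of any group and 64 to 164 with 1 array left out, the lowest without replicate 2 of B2. In NKT minus CD4T they numbered 601 with the block (2 of them members), 133 with the filter, 134 with a minimum difference of 1, 356 without replicate 1 of any group and 134 to 242 with 1 array left out. In CD8aaT minus CD8abT they numbered 2 with only those groups, 398 with the block, 9 with the offset, 190 without replicate 1 of any group, 46 without replicate 1 of NKT and CD4T, and 10 to 57 with 1 array left out. The pathway genes called in B1 minus B2 were 1 higher with the block (Pirb, 0.63, adjusted p = 0.018) and 1 without replicate 1 of any group, and 6 lower with the block, which added Ptpn6 (adjusted p = 0.0010), Fyn (0.0071) and Vpreb3 (0.015), and 2 to 4 with 1 array left out. Of the gene families 1 was lower with only those groups and 1 without replicate 1 of any group, and 1 to 2 with 1 array left out. The shared replicate numbers are not known to pair the samples, in B1 and B2 or in the T cell groups. The median B minus T difference was 4.86 as deposited, 4.22 with quantile normalization, 3.30 for B2 against CD4T, 4.17 without replicate 1 of NKT and CD4T and 3.82 to 4.10 with 1 array left out. All B cell arrays lay above all T cell arrays for 49.9% of all probe sets as deposited, 21.9% for B2 against CD4T and 4.84% with quantile normalization.

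Signs of uncalled values turned as follows. Without replicate 1 of any group, B1 minus B2 was 0.047 for Blnk (100771_at) and 0.13 for Btk (92668_at), which was 0.032 with centred arrays. NKT minus CD4T was then 0.012 for Cd79a and 0.085 for Btk (92668_at), the same 0.012 and 0.085 without replicate 1 of NKT and CD4T alone, and 0.011 for Btk with quantile normalization. CD8aaT minus CD8abT was then -0.15 for Blnk (100771_at) and -0.086 for Ms4a1 (99446_at). B minus T for Btk (161971_r_at) was 0.84 as deposited, 0.075 centred on brighter probe sets and 0.25 for B2 against CD4T. With 1 array left out, B1 minus B2 ran from -0.90 to 0.28 for Cd79a, -0.63 to 0.091 for Cd79b, -0.80 to 0.57 for Blnk (100771_at), -0.80 to 0.76 for Btk (92668_at) and -0.31 to 0.13 for Ms4a1 (99446_at). NKT minus CD4T ran from -0.17 to 0.038 for Cd79a, -0.12 to 0.73 for Cd79b, -0.052 to 0.11 for Btk (161971_r_at), -0.12 to 0.13 for Btk (92668_at), -0.29 to 0.68 for Ms4a1 (104173_at) and -0.024 to 0.45 for Fcrla. CD8aaT minus CD8abT ran from -0.061 to 0.19 for Blnk (100771_at), -0.30 to 0.038 for Btk (161971_r_at), -0.046 to 0.10 for Btk (92668_at), -0.11 to 0.10 for Ms4a1 (104173_at), -0.067 to 0.19 for Ms4a1 (99446_at) and -0.047 to 0.26 for Fcrla. B minus T ran from -0.084 to 0.0054 for Btk (161971_r_at). The cause was not tested. A B cell group left with 1 array is assumed to vary like the other groups.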
